A study of Mus musculus with 451 samples.

Results

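The genes described are 10 members of the platelet-derived growth factor (PDGF) and fibroblast growth factor (FGF) pathways in single cells of the mouse tail tendon, out of 48795 gene symbols counted. They were chosen by name, with no measured value in the rule but with earlier results of these data known. All 10 were found. They are the receptors Pdgfra, Pdgfrb, Fgfr1 and Fgfr2, the receptor-like gene Pdgfrl, the ligands Pdgfa, Fgf2 and Fgf7, and the feedback inhibitors Spry1 and Spry2. The cells came from tail tendons of C57BL/6 mice aged 4 weeks, either wild-type (WT) or lacking the tendon transcription factor Mohawk (Mkx-/-). Tendons were digested with collagenase and the cells were captured on a Fluidigm C1 chip, and no sort is described. The labels name no animal or chip, so each genotype was treated as 1 sample: 227 WT cells and 224 Mkx-/- cells. Genotype, animal and chip therefore cannot be told apart, no p-value was computed, and every interval is a 95% interval that covers counting error only. Intervals of levels and ratios take reads as independent, which reads without molecular identifiers are not. They also leave out the spread between cells, so they are too narrow to tell genotypes apart.

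PDGFs and FGFs are secreted ligands whose receptors are cell-surface tyrosine kinases that signal through Ras and ERK. PDGFRA marks many fibroblasts and connective-tissue progenitors, among them the Tppp3-positive stem cells of the tendon sheath, and PDGFRB is best known in mural cells and fibroblasts. FGF receptors bind their ligands together with heparan sulfate, and the Sprouty genes are switched on by these signals and damp them. The small molecule BIBF1120, which the study gave to mice and rats with ectopic tendon bone, blocks PDGF, FGF and VEGF receptors.

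The promoter sequences of both Sprouty genes are given because these feedback inhibitors had higher levels in Mkx-/- cells. Each sequence is the 250 bases before the RefSeq start on build GRCm38.p6, read 5′ to 3′ on the gene's strand, at chr3:37639697-37639946 on the plus strand for Spry1 and at chr14:105896820-105897069 on the minus strand for Spry2. Capitals mark matches to the motifs named after them.
Spry1: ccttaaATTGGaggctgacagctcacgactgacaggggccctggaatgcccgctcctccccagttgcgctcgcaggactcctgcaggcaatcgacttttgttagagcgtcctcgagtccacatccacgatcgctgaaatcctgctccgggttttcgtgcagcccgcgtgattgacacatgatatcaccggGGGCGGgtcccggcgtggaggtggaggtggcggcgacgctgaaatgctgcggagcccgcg
Spry2: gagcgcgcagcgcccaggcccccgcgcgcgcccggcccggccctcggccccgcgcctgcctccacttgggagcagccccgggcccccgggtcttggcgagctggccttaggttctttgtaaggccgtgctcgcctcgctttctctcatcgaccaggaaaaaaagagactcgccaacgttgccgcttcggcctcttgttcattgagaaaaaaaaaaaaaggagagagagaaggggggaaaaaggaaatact

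Both windows had a GC content of 62.4%. The Spry1 window held a GC box (GGGCGG) 60 to 55 bases before the start and, on the opposite strand, a CCAAT box (printed as ATTGG) 244 to 240 bases before it. The Spry2 window matched none of the 6 motifs searched on both strands. Across 32851 promoters of the same length, 32.7% held the GC box, 33.8% the CCAAT box, 12.4% the TATA box (TATAAA), 12.03% the ETS core (CCGGAA), 6.02% the E-box (CACGTG) and 1.55% the cyclic AMP element (TGACGTCA). The match of letters is a description of these windows and does not show that a factor binds there.

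In total, 13630536 reads came from WT cells (median 51788 for a cell) and 14145394 from Mkx-/- cells (median 56121). No cells had identical counts. Mkx itself was read at 33.8 CPM (counts per 1000000 reads) in WT against 15.5 CPM in Mkx-/- cells. The sources used here do not give the deleted part of the gene, so this value does not check the labels. Clustering of both genotypes together gave 3 groups. Cluster 1 (89 WT and 88 Mkx-/- cells) had the highest summed level of 5 tendon progenitor cell (TPC) markers, 24318 CPM in WT against 13079 in cluster 3 and 4505 in the tenocyte cluster. Its 10 leading genes by fold held none of these 5 and included Tek, a gene from the endothelial list, so it is called by its number. Cluster 3 (64 and 56 cells) had only 2 tenoblast markers to name it by and was led by the matrix proteases Mmp10 and Mmp3 and the neuropeptide Npy. The tenocyte-like (TC-like) cluster (74 and 80 cells) had all 6 tenocyte markers at their highest, summing to 317850 CPM in WT and 228592 in Mkx-/- cells, and is named by them. Its 10 leading genes by fold held 1 gene of the tenocyte list, Col11a2, a collagen that cartilage has too, and 1 of the cartilage list, Col2a1, beside Ucma, a cartilage matrix gene that was on neither list. Summed cartilage markers were at 575.6 CPM in TC-like WT cells and 408 in TC-like Mkx-/- cells, against at most 100.8 in the other clusters. The border between clusters 1 and 3 was soft: 32 to 41 cells of cluster 3 joined cluster 1 in other clusterings, while at most 3 TC-like cells left theirs. Those clusterings left out the members and pathway genes, left out also the genes that differed between genotypes, or used 10 dimensions.

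Markers of other cell types had low summed levels. Summed over all cells, endothelial markers were at 88.8 CPM in WT and 31.4 in Mkx-/- cells, mural markers at 118.998 and 94.9, immune markers at 116.4 and 88.8, Schwann markers at 88.3 and 140.05, and cartilage markers at 297 and 222.4. Muscle markers were at 1.03 and 0.49 CPM, osteoblast markers at 12.5 and 11.4 with 2 of 3 at 0, and red cell markers at 6.82 and 0.92. In each genotype 1 well held reads of at least 3 endothelial or 3 mural markers, and the WT well of this kind was the leading WT cell for Pdgfa, with 13.9% of its WT reads.

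Fgfr1 was the broadly read receptor and Pdgfrl the gene with the highest level per length. Levels between genes are given as CPM per kilobase of exon, without knowledge of how reads spread along transcripts. The order rests on that division. In plain CPM, Fgfr1 was highest in both genotypes, at 497 in WT and 620 in Mkx-/- cells, against 349 and 540 for Pdgfrl. Per kilobase, Pdgfrl in WT cells stood at 111.5 (108.4 to 114.7), Fgf2 at 73.6 (70.3 to 77.1) and Fgfr1 at 61.6 (60.1 to 63.1). Pdgfa followed at 28.7 and Pdgfrb at 23.6. Pdgfra at 18.8 (17.9 to 19.7) and Spry2 at 18.3 (16.7 to 19.9) had overlapping intervals, as did Fgf7 at 6.03 (5.33 to 6.80) and Spry1 at 5.48 (4.77 to 6.26). Fgfr2 was lowest at 1.58. In Mkx-/- cells Pdgfrl was again highest at 172.9, followed by Fgfr1 at 76.96 and Fgf2 at 40.3, so that per kilobase Fgfr1 and Fgf2 stood in the other order. In plain CPM, Fgfr1 stood above Fgf2 in both genotypes, at 497 against 132.6 in WT and 620 against 72.7 in Mkx-/- cells. Pdgfa came next at 33.1, and Spry2 at 29.2 (27.3 to 31.2) and Pdgfra at 26.6 (25.6 to 27.6) overlapped. Pdgfrb at 23.3, Spry1 at 10.1 (9.12 to 11.1), Fgf7 at 8.29 (7.48 to 9.17) and Fgfr2 at 1.28 completed the order, with Spry1 and Fgf7 overlapping.

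**Figure D1:**
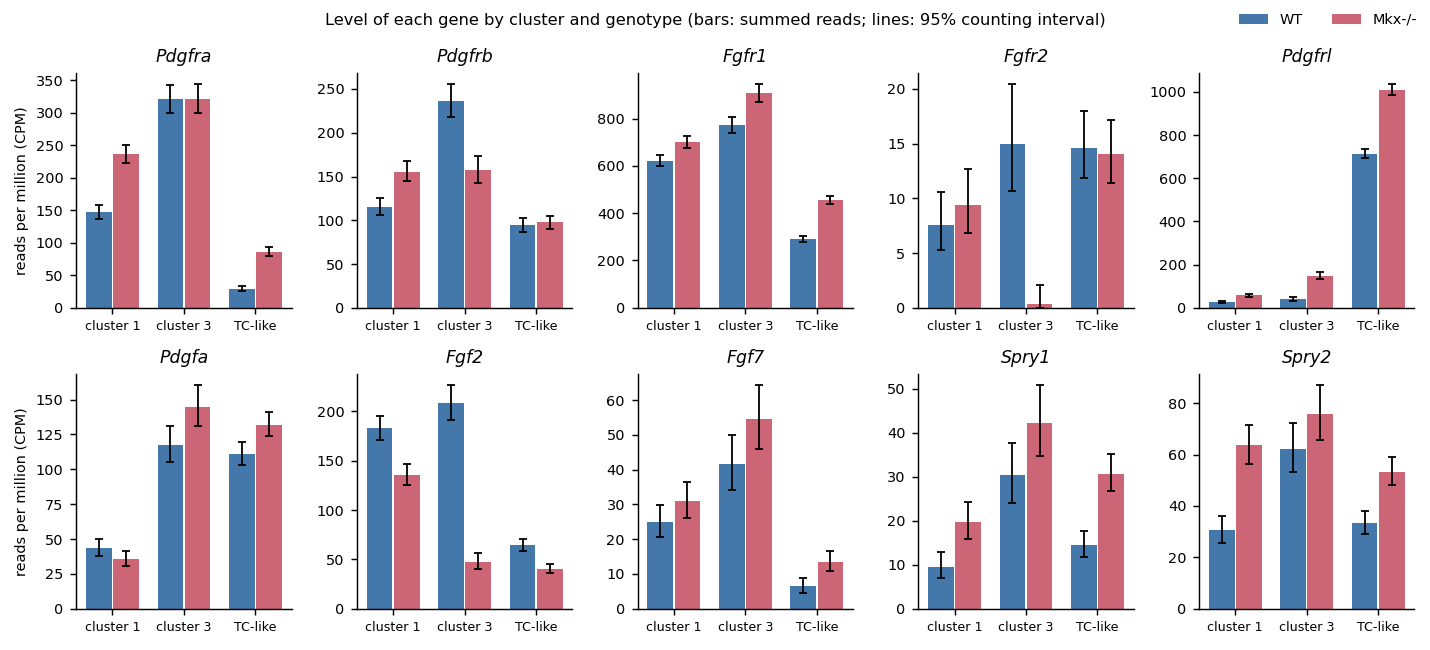
Level of each gene in CPM (y axis, starting at 0 and scaled separately for each gene), from reads summed over the cells of cluster 1, cluster 3 and the TC-like cluster (x axis), in WT (blue) and Mkx-/- (red) cells, with 95% Poisson intervals. Pdgfrl stands at 712 and 1011 CPM in TC-like cells against at most 149.2 elsewhere, and Fgf2 in cluster 3 stands at 208.3 CPM in WT against 47.8 in Mkx-/- cells.

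Pdgfra, the receptor for PDGF-AA (chr5:75548316-75594229, plus strand, build NCBIM37), was lowest in TC-like cells and highest in cluster 3 in both genotypes. Its WT level was 147.3 CPM (136.4 to 158.8) in cluster 1, 322 (300 to 344) in cluster 3 and 29.3 (25.2 to 33.8) in the TC-like cluster. In Mkx-/- cells it was 236 CPM (222.4 to 251), 322 (300 to 344) and 86.5 (79.7 to 93.7). The counting intervals of the genotypes thus overlapped in cluster 3 and did not overlap in cluster 1 or in TC-like cells. On the log2 scale Mkx-/- over WT was 0.68 (0.54 to 0.82) in cluster 1, 0.00 (-0.14 to 0.14) in cluster 3 and 1.56 (1.32 to 1.81) in the TC-like cluster. Clustered without genes that differed between genotypes, the ratio in cluster 1 was 0.58, just under 1.5-fold. Over all cells the level was 126.4 CPM in WT against 179.1 in Mkx-/- cells, or 1.42-fold (log2 ratio 0.50, 0.41 to 0.59). Without the 5 leading cells of each genotype the ratio in TC-like cells was 1.68, and over all cells 0.57.

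Over all cells, more Mkx-/- than WT cells held a Pdgfra read, while the cells that held one had like median levels. Their median was 165.3 CPM in WT and 164.96 in Mkx-/-. By cluster, the median of cells with a read was 189.1 CPM in WT and 185.03 in Mkx-/- cells in cluster 1. It was 220.5 and 298.2 CPM in cluster 3, and 72.3 and 88 CPM in TC-like cells. To compare shares at one depth, each cell was thinned to 28000 reads, which left out 23 WT and 18 Mkx-/- cells. Pdgfra was then read in 47.5% of the WT and 67.96% of the Mkx-/- cells kept, a difference of 20.4 percentage points (10.9 to 29.4). Without thinning the shares were 51.1% and 75.4%. In cluster 1 the thinned share was 51.2% in WT against 75.3% in Mkx-/- cells, and in TC-like cells it was 22.97% and 47.5%. In cluster 3 it was 78% and 91.1%, a difference of 13.1 points (-1.92 to 27.4).

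Pdgfrb, the receptor that binds PDGF-BB and PDGF-DD (chromosome 18), had like levels over all cells and unlike ones by cluster. It stood at 129.2 CPM (123.2 to 135.4) in WT against 127.7 CPM (121.9 to 133.7) in Mkx-/- cells, with a log2 ratio of -0.02 (-0.11 to 0.08). In cluster 1 it was 115.4 CPM in WT against 155.6 in Mkx-/- cells, giving a log2 ratio of 0.43 (0.27 to 0.60). In cluster 3 it was 236 and 157.8 CPM, a log2 ratio of -0.58 (-0.76 to -0.40). The cluster values had opposite signs. Each was under 1.5-fold, the cluster 3 value barely so, and without the 5 leading cells of each genotype both were past it, at 0.74 in cluster 1 and -0.87 in cluster 3. Relative to the median of all genes the cluster 3 value was -0.61, and clustered in 10 dimensions it was -0.64, again past 1.5-fold. Other clusterings gave smaller values with the same signs. With members and pathway genes left out, cluster 1 was at 0.18 (0.04 to 0.33) and cluster 3 at -0.50. Without genes that differed between genotypes, they were at 0.23 and -0.43. In TC-like cells the levels were 94.3 and 97.6 CPM, a log2 ratio of 0.05 (-0.11 to 0.21). That ratio was -0.15 relative to the median of all genes, which stood at 0.20 in TC-like cells. The share of thinned cells with a Pdgfrb read was 48.04% in WT against 52.4% in Mkx-/- cells, a difference of 4.39 points (-5.25 to 13.9).

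Reads of both PDGF receptors in 1 cell were counted on the thinned cells. Both receptors were read in 53 WT cells, or 25.98% (20.1 to 32.6), and in 79 Mkx-/- cells, or 38.3% (31.7 to 45.4). The product of the single shares was 22.8% and 35.6%, so joint detection lay near what the single shares give. In TC-like cells both were read in 9 of 74 WT and 23 of 80 Mkx-/- cells. Cells with Pdgfrb alone were 24 of the 74 WT and 14 of the 80 Mkx-/- TC-like cells. Cells with neither receptor were 62 in WT and 37 in Mkx-/- over all clusters. Joint reads of Pdgfra and Tppp3, the pair that marks tendon sheath stem cells, occurred in 28.4% of WT cells against 48.1% of Mkx-/- cells. In cluster 1 these joint shares were 38.8% and 62.96%. Tppp3 itself was read in 83.8% of WT cells of cluster 1 against 81.5% in Mkx-/-, so there the Tppp3 shares were alike and the Pdgfra shares were not. In TC-like cells the joint shares were 8.11% and 28.8%, where Tppp3 itself was read in 27.03% and 41.2%.

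**Figure D2:**
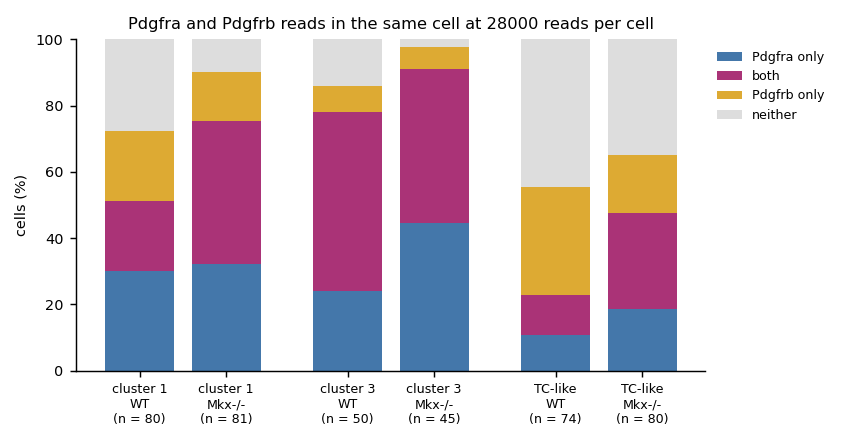
Percent of cells (y axis) with a read of Pdgfra only, of both PDGF receptors, of Pdgfrb only or of neither, at 28000 reads per cell, in each cluster and genotype (x axis, with the number of cells). Both receptors were read in 12.2% of WT and 28.8% of Mkx-/- TC-like cells.

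Fgfr1, the FGF receptor of most connective-tissue cells (chr8:26624126-26686186, plus strand), was read in nearly every cell. At 28000 reads it was read in 92.6% of WT and 97.1% of Mkx-/- cells, a difference of 4.44 points (0.09 to 9.13). Its level in WT was 622 CPM in cluster 1, 773 in cluster 3 and 290 in TC-like cells. In Mkx-/- cells it was 701, 907 and 457 CPM. Each Mkx-/- level was above its WT counterpart by more than the counting interval. The log2 ratios were 0.17 (0.10 to 0.25) in cluster 1, 0.23 (0.15 to 0.32) in cluster 3 and 0.66 (0.57 to 0.74) in the TC-like cluster. In cluster 1 a single Mkx-/- cell held 13.2% of the reads, and with 1 leading cell per genotype removed the ratio there was 0.03 (-0.04 to 0.11). In TC-like cells the median cell stood at 188.1 CPM in WT against 398.7 in Mkx-/- cells.

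Fgfr2, the receptor whose epithelial form binds FGF7, was nearly at the limit of reading. Its level was 12.3 CPM (10.5 to 14.3) in WT and 9.97 CPM (8.39 to 11.8) in Mkx-/- cells. Only 26 cells of each genotype held any read before thinning. In cluster 3 there were 40 reads in WT, 37.5% of them in 1 cell, against 1 read in Mkx-/-. Its log2 ratio over all cells, -0.31 (-0.64 to 0.03), ranged from -0.65 to 1.02 under other processing, so no direction is given. The annotation of NCBIM37 stretches this gene over chr7:137305965-140315033 on the minus strand and shares 4.03% of its exon bases with Ctbp2.

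Pdgfrl encodes a protein that resembles the outer part of a PDGF receptor and has no kinase (chr8:42011566-42076139, plus strand). It was mainly a gene of the TC-like cluster, which held 95.2% of its reads in WT and 91.4% in Mkx-/- cells. In WT it stood at 26.03 CPM (21.6 to 31.1) in cluster 1, 40.5 (33.2 to 48.9) in cluster 3 and 712 (692 to 733) in the TC-like cluster. In Mkx-/- cells it stood at 57.04 (50.3 to 64.4), 149.2 (134.8 to 164.6) and 1011 (987 to 1035). All 3 clusters had higher levels in Mkx-/- cells, with log2 ratios of 1.13 (0.81 to 1.46), 1.88 (1.57 to 2.20) and 0.50 (0.45 to 0.56). The size in cluster 3 depended on the cells: the ratio was 0.85 when cells were clustered without genes that differed between genotypes, from 84.3 to 152.3 CPM, and 3.13 without the 5 leading cells of each genotype. The ratio in TC-like cells was 0.30 relative to the median of all genes there. Over all cells the ratio was 0.63 (0.58 to 0.69), from 349 to 540 CPM. It fell under 1.5-fold with TMM scaling (0.57), with median-of-ratios scaling (0.58), in cells with at least 2500 genes (0.54) and in cells with under 5000 genes (0.47). In cluster 3 the share of thinned cells with a Pdgfrl read was 24% in WT against 68.9% in Mkx-/- cells, a difference of 44.9 points, with a lower bound of 25.1. In TC-like cells nearly all cells held it, 95.9% and 96.2%. Summed TC markers in cluster 3 were 32226 CPM in WT against 45054 in Mkx-/- cells, and their part in the Pdgfrl difference was not tested.

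**Figure D3:**
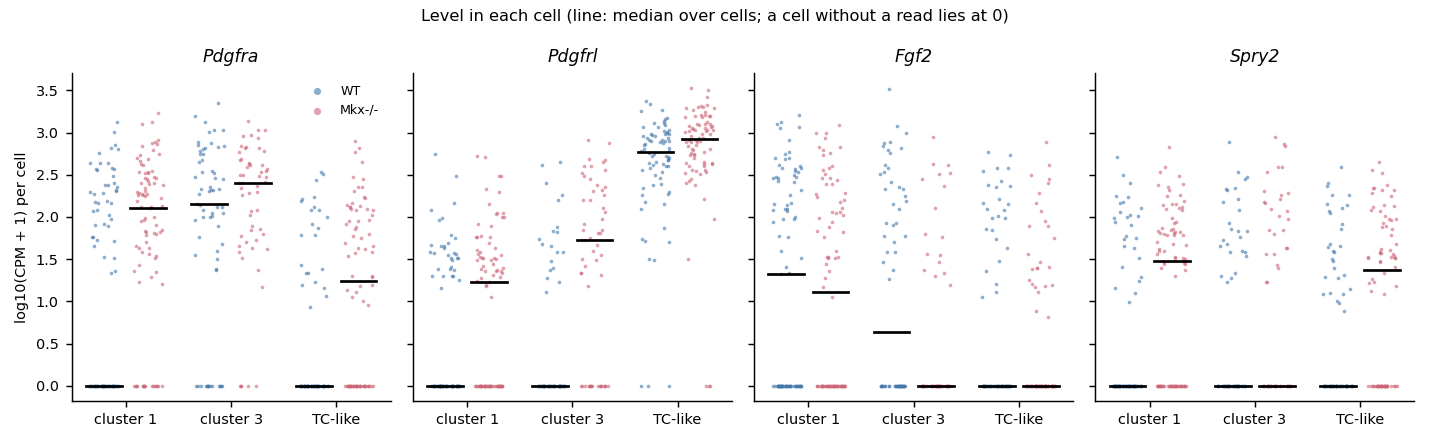
Level of Pdgfra, Pdgfrl, Fgf2 and Spry2 in every cell, as log10 of CPM plus 1 (y axis), by cluster (x axis) in WT (blue) and Mkx-/- (red) cells, with the median over cells as a line and cells without a read at 0. The median TC-like cell stands at 591 CPM of Pdgfrl in WT against 840 in Mkx-/- cells, and the median TC-like cell for Pdgfra is without a read in WT and at 16.5 CPM in Mkx-/- cells.

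Pdgfa, the gene of PDGF-AA (chr5:139451968-139473324, minus strand), was higher in cluster 3 and in TC-like cells than in cluster 1. In WT it stood at 43.6 CPM in cluster 1, 117.7 in cluster 3 and 110.8 in TC-like cells, and in Mkx-/- cells at 35.8, 145.01 and 132.03. Over all cells the log2 ratio was 0.21 (0.10 to 0.32), from 89.4 to 103.4 CPM. In cluster 3 it was 0.30 and turned to -0.51 when cells were clustered without genes that differed between genotypes. A few WT cells weighed on this value. In cluster 1 a single WT cell held 40.8% of the reads, and the ratio there was -0.28 (-0.59 to 0.02) with all cells and 0.14 (-0.23 to 0.51) with 1 leading cell per genotype removed. Without the 5 leading cells of each genotype the ratio over all cells was 0.56, and in TC-like cells it was 1.06 against 0.25 with them, where the WT well with other cell types' markers was the leading cell. The share of thinned cells with a read was 28.4% in WT against 41.3% in Mkx-/- cells, a difference of 12.8 points (3.61 to 21.8). Cells reading both Pdgfra and Pdgfa were 14.7% of WT and 25.7% of Mkx-/- cells, beside products of the single shares of 13.5% and 28.04%. Exons of 6330403L08Rik on the opposite strand cover 26.1% of the Pdgfa exon bases. That gene had 40 reads in all cells, and whether counting used the strand is not given in the sources used here.

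Fgf2, a ligand of most FGF receptors (chr3:37211441-37304299, plus strand), was the member lower past 1.5-fold in Mkx-/- cells. It stood at 132.6 CPM (126.6 to 138.9) in WT against 72.7 CPM (68.3 to 77.3) in Mkx-/- cells, with a log2 ratio of -0.87 (-0.98 to -0.76). All 3 clusters had this direction. In cluster 1 it was 182.9 CPM in WT against 135.9 in Mkx-/- cells, giving a log2 ratio of -0.43 (-0.58 to -0.28). In cluster 3 it was 208.3 and 47.8 CPM, a ratio of -2.12 (-2.41 to -1.84), which is 4.36-fold. In TC-like cells it was 64.4 and 40.3 CPM, a ratio of -0.67 (-0.90 to -0.45). The ratio was largest in cluster 3, whose WT reads were not held by 1 cell: the leading cell had 16.5% of them, and with 1 leading cell per genotype removed the ratio was -2.22 (-2.55 to -1.90). It was -1.56 when cells were clustered without genes that differed between genotypes. The share of thinned cells with a read was 45.6% in WT against 34.95% in Mkx-/- cells, a difference of -10.6 points (-19.9 to -1.15). In cells with a read the median was 205.1 CPM in WT against 100.1 in Mkx-/- cells, so that level and share were both lower. In cluster 3 the share was 56% and 31.1%, a difference of -24.9 points (-42.2 to -4.91). Fgf2 and its receptor Fgfr1 were both read in 44.1% of WT and 34.5% of Mkx-/- cells. Exons of Nudt6 on the opposite strand cover 13.4% of the Fgf2 exon bases, and Nudt6 had 18 reads.

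Fgf7, also named keratinocyte growth factor (chr2:125860394-125916921, plus strand), was read in few cells. At 28000 reads it was read in 9.31% of WT and 15.5% of Mkx-/- cells, a difference of 6.22 points (-0.21 to 12.7). Its level was 19.6 CPM (17.3 to 22.1) in WT and 26.9 CPM (24.3 to 29.8) in Mkx-/- cells, and 50% of its reads lay in 4 WT and 6 Mkx-/- cells. The Mkx-/- well with other cell types' markers held 39 of the 381 Mkx-/- reads, and the WT well of this kind held 2 of the 267 WT reads. TC-like cells had its lowest level, 6.45 CPM in WT and 13.6 in Mkx-/- cells. In WT cluster 3 was highest, at 41.6 CPM against 24.9 in cluster 1. The order of these clusters in Mkx-/- cells depended on the clustering: cluster 3 was at 54.6 CPM against 31.03 in cluster 1, but at 21.4 against 47.2 when members and pathway genes were left out and at 35.2 against 40.8 in 10 dimensions. The log2 ratio in cluster 3 likewise went from 0.39 to -0.99 and -0.37, so no direction is given there. The log2 ratio over all cells was 0.46 (0.23 to 0.69) and ranged from 0.09 to 0.97 under other processing. Fgf7 and Fgfr2 were read together in 1 WT and 4 Mkx-/- cells after thinning.

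Spry1 (chr3:37538869-37543520, plus strand) and Spry2 (chr14:106291166-106296036, minus strand), inhibitors of Ras and ERK signalling, were both higher in Mkx-/- cells. Spry2 stood at 38.1 CPM (34.9 to 41.5) in WT against 60.9 CPM (56.9 to 65.1) in Mkx-/- cells, with a log2 ratio of 0.68 (0.52 to 0.84). Spry1 stood at 15.9 CPM (13.9 to 18.2) and 29.3 CPM (26.5 to 32.2), a log2 ratio of 0.88 (0.64 to 1.12). The counting intervals of the genotypes, which leave out the spread between cells, did not overlap for either gene. By cluster, Spry2 was 30.6 and 63.6 CPM in cluster 1, 62.2 and 75.7 in cluster 3, and 33.4 and 53.4 in TC-like cells. Its log2 ratios were 1.06 (0.76 to 1.36), 0.28 (-0.02 to 0.59) and 0.68 (0.43 to 0.93). Spry1 was 9.54 and 19.7 CPM in cluster 1, 30.4 and 42.2 in cluster 3, and 14.5 and 30.7 in TC-like cells. Its log2 ratios were 1.04 (0.51 to 1.60), 0.47 (0.05 to 0.91) and 1.08 (0.72 to 1.45). In cluster 3 a single WT cell held 51.9% of the Spry1 reads, and with 1 leading cell per genotype removed the ratio there was 1.27 (0.72 to 1.85). The cluster 3 ratios also depended on the clustering. Spry1 was at 0.23 (-0.25 to 0.71) when members and pathway genes were left out, and Spry2 at -0.07 (-0.42 to 0.28) in 10 dimensions. In TC-like cells, Spry2 was at 0.56, under 1.5-fold, when cells were clustered without genes that differed between genotypes.

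The shares of cells moved in the same direction as the Sprouty levels. Spry2 was read in 26.5% of WT and 48.5% of Mkx-/- thinned cells, a difference of 22.1 points (12.7 to 30.9), which was 31.8 points (16.9 to 44.8) in cluster 1. Spry1 was read in 15.2% and 27.7%, a difference of 12.5 points (4.54 to 20.2). Both Sprouty genes were read in 9 WT and 27 Mkx-/- cells, or 4.41% and 13.1%, beside products of the single shares of 4.02% and 13.4%.

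**Figure D4:**
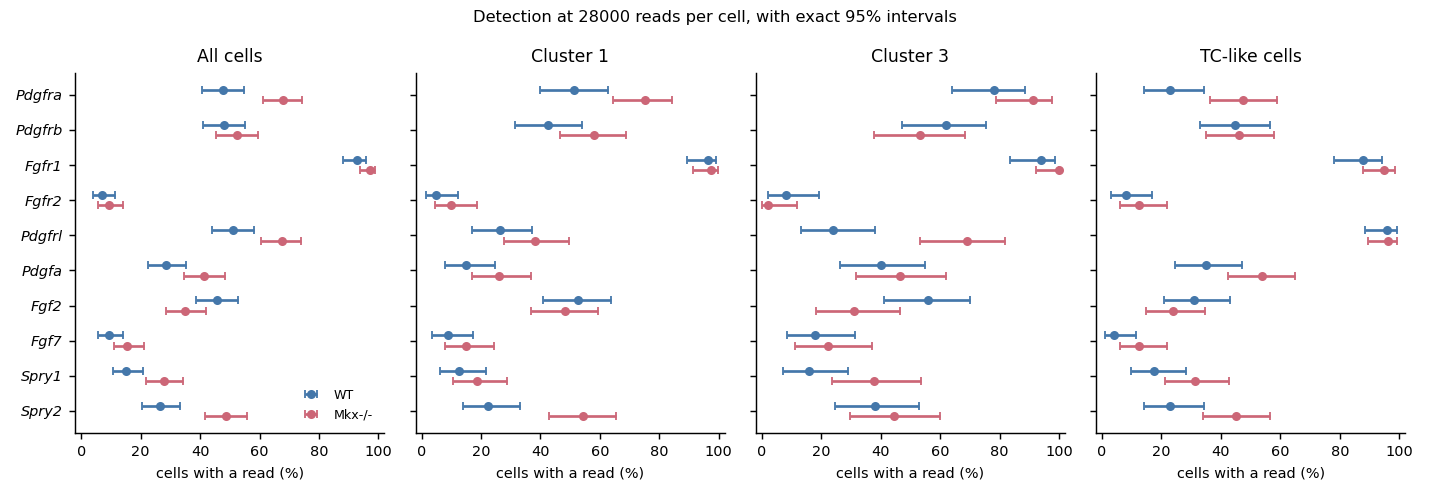
Percent of cells with a read (x axis) of each gene (y axis) after thinning to 28000 reads per cell, over all cells and in each cluster, in WT (blue) and Mkx-/- (red) cells, with exact 95% binomial intervals. Over all cells, Spry2 stands at 26.5% in WT and 48.5% in Mkx-/- cells and Pdgfra at 47.5% and 67.96%, while Pdgfrb stands at 48.04% and 52.4% with overlapping intervals.

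Read as a group over all cells, 3 of the 10 members were higher past 1.5-fold in Mkx-/- cells (Pdgfrl, Spry1 and Spry2) and 1 was lower (Fgf2). Of the 10963 genes with at least 100 reads, 16% were higher and 13.1% lower past 1.5-fold, so the members' counts are not far from the background. Relative to the median of all genes, 2 members were higher and 1 lower, since Pdgfrl was then at 0.58. The median log2 ratio of the members was 0.39, beside 0.05 for all genes. In cluster 1, 4 of 9 members with enough reads were higher and 0 lower, against 17.7% and 16.2% of genes, with a median of 0.43 beside 0.01. In cluster 3, 1 was higher and 1 lower of 9, against 20.6% and 19.5%, with a median of 0.28 beside 0.03. Relative to that median of all genes 2 were lower there, Pdgfrb being the other. The members' median was -0.018 when cells were clustered in 10 dimensions. In TC-like cells 5 were higher and 1 lower of 10, against 28% and 13.2%, with a median of 0.58 beside 0.20. Relative to the median of all genes, 3 were higher and 1 lower there, since Fgfr1 at 0.45 and Spry2 at 0.47 were then under 1.5-fold. Past 2-fold over all cells, 0 members were higher and 0 lower, against 7.23% and 6.12% of genes. The reads of Col1a1, Col1a2 and Sparc took 30.9% of all TC-like reads in WT against 21.7% in Mkx-/- cells, and their part in the shift of all genes was not tested.

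Shares of cells were set beside those of other genes in the same way. Over all cells 5 of 10 members were read in a share of Mkx-/- cells at least 10 points higher and 1 in a share at least 10 points lower, against 4.36% and 0.73% of genes. Genes read in very few or nearly all cells have less room to differ by so much. Among the 6722 genes read in 10% to 90% of cells, 6.98% were higher and 1.13% lower by that measure, and 5 of the 8 members in that range were higher and 1 was lower. The median difference was 12.7 points for these 8 members and 1.79 points for these genes. In cluster 1, 5 of the 8 members in that range were higher and 0 lower, against 11.3% and 6.89% of genes. In cluster 3, 3 of 8 were higher and 1 lower, against 20.4% and 9.65%, and in TC-like cells 4 of 7 were higher and 0 lower, against 18.7% and 5.79%.

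**Figure D5:**
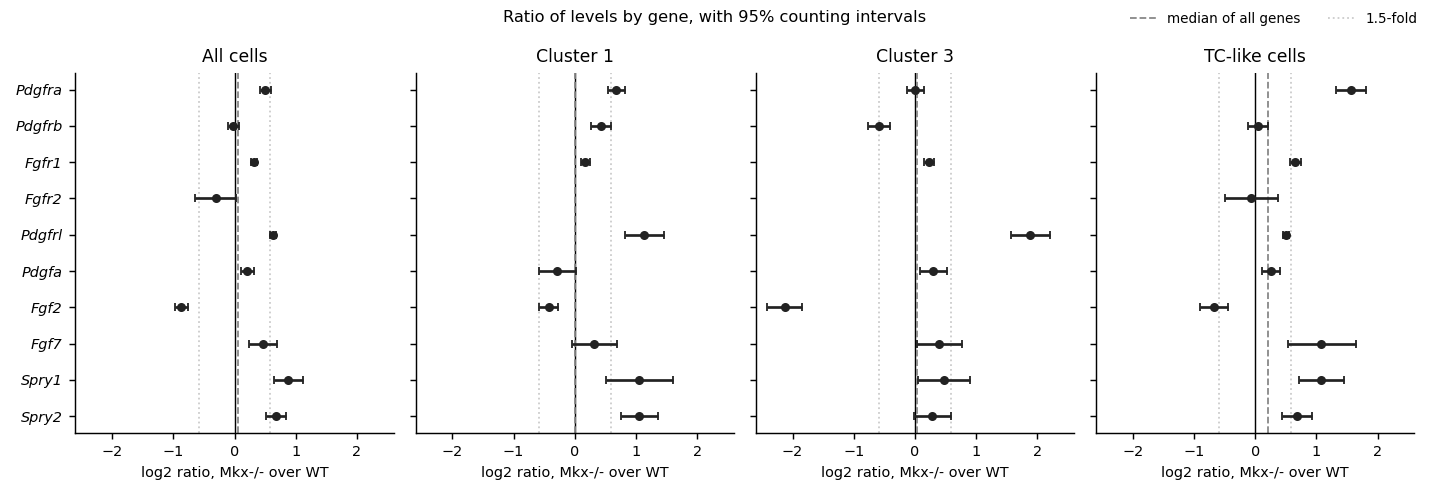
Log2 ratio of levels, Mkx-/- over WT (x axis), of each gene (y axis) over all cells and in each cluster, for genes with at least 100 reads, with 95% counting intervals as lines, the median of all genes as a dashed line and 1.5-fold as dotted lines. Fgf2 lies left of 0 in all 4 panels, down to -2.12 in cluster 3, and Pdgfra lies at 0.00 in cluster 3 and 1.56 in TC-like cells.

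Set against each other, cluster 1 and the TC-like cluster divided the members. A WT cell had a median of 48157 reads in cluster 1 and 82854 in the TC-like cluster, and a Mkx-/- cell 50152.5 and 72897. In WT, cluster 1 over TC-like cells gave log2 ratios of 2.33 (2.09 to 2.57) for Pdgfra, 1.95 (1.42 to 2.50) for Fgf7, 1.51 (1.33 to 1.68) for Fgf2 and 1.10 (1.02 to 1.19) for Fgfr1. It gave -4.77 (-5.05 to -4.51) for Pdgfrl, -1.35 (-1.58 to -1.12) for Pdgfa, -0.95 (-1.55 to -0.37) for Fgfr2 and -0.60 (-1.15 to -0.07) for Spry1. Pdgfrb at 0.29 and Spry2 at -0.13 were under 1.5-fold. Thus 4 members were higher and 4 lower, against 53.5% and 11.1% of genes, and the median of all genes was 0.66. In Mkx-/- cells 5 were higher and 3 lower, against 43% and 12.7%, with a median of all genes of 0.44. Pdgfra was then at 1.45 (1.30 to 1.60), Pdgfrb at 0.67 (0.52 to 0.83) and Pdgfrl at -4.15 (-4.33 to -3.97). Relative to the median of all genes, 3 were higher and 5 lower in WT, and 3 and 4 in Mkx-/- cells; Pdgfrb in WT and Spry2 in Mkx-/- cells changed sign, to -0.37 and -0.18. The clusters were found with genes that could include the members, and another clustering left out the members and pathway genes, 69 genes in all. The TC-like levels of Pdgfra and Pdgfrl were then still 29.3 and 712 CPM in WT.

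In WT, cluster 3 had most members above cluster 1. There 7 of 9 members were lower past 1.5-fold in cluster 1 than in cluster 3 and 0 were higher, against 17% and 25.7% of genes. In Mkx-/- cells 4 were lower and 1, Fgf2, was higher, against 17.8% and 27%. Over the other clusterings 6 to 7 were lower in WT, and in Mkx-/- cells 3 to 5 were lower and 1 to 2 higher. One of the 4, Fgf7 at -0.82, turned to 1.14 when members and pathway genes were left out of the clustering. The exceptions in WT were Fgfr1 at a log2 ratio of -0.32 and Fgf2 at -0.19, both under 1.5-fold. Fgf2 in Mkx-/- cells was at 1.51 (1.23 to 1.79).

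Across cells, Pdgfrl followed tenocyte genes. Spearman correlations were taken over the thinned cells of each genotype with 4139 genes read in at least 20% of cells. Cells of one genotype share their sample, and all were thinned to 28000 reads. The genes most like Pdgfrl were Tnmd, a membrane protein of tenocytes (0.72 in both genotypes), Kera, a matrix proteoglycan (0.74 in WT and 0.71 in Mkx-/- cells), 1500015O10Rik (0.70 and 0.72), and the collagen genes Col1a1 (0.68 and 0.74) and Col1a2 (0.68 and 0.75). Those most like Pdgfra were Gsn, which severs actin filaments (0.51 and 0.40), Myoc (0.34 and 0.33), Col3a1 (0.36 and 0.30), Ftl1-ps1 (0.29 and 0.35) and Cd9 (0.35 and 0.29). For Fgfr1 they were Col3a1 (0.45 and 0.30), Pvr, Glul, Malat1 and Ugdh, with values of 0.29 to 0.45. These last correlations are weak. Between members, Pdgfra and Pdgfrl stood at -0.35 in WT and -0.28 in Mkx-/- cells. All these correlations pool the clusters, so they include the differences between clusters given above. Within clusters, joint reads of Pdgfra and Pdgfrl lay near the product of the single shares. In WT they were 15% beside 13.5% in cluster 1, 18% beside 18.7% in cluster 3 and 20.3% beside 22.04% in TC-like cells. For Mkx-/- cells they were 30.9% beside 28.8%, 62.2% beside 62.8% and 45% beside 45.7%.

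Other genes of both pathways showed no common direction. Of 60 listed genes, 41 had at least 100 reads, of which 6 were higher and 9 lower past 1.5-fold in Mkx-/- cells, beside the 16% and 13.1% of all genes given above, and their median log2 ratio was 0.05, as for all genes. Over all cells both PDGF ligands with enough reads were lower past 1.5-fold. Pdgfc was at 46.6 CPM in WT against 27.7 in Mkx-/- cells, with a log2 ratio of -0.75 (-0.93 to -0.57), and in cluster 1 it was at 89.8 and 36.1 CPM. Pdgfd was at 41.7 and 21.99 CPM, a ratio of -0.93 (-1.13 to -0.72), and in TC-like cells it was at 45.97 and 13.2 CPM. Within each cluster only 1 of these 2 ligands was lower past 1.5-fold. The other was above 0 in cluster 1 (Pdgfd) and in TC-like cells (Pdgfc), while both were below 0 in cluster 3. Over all cells Pdgfa was thus the PDGF ligand that was not lower, and Pdgfb had 8 and 1 reads. Among FGF ligands, Fgf1 was at 7.12 and 1.70 CPM, a ratio of -2.07 (-2.78 to -1.41), while Fgf18, the ligand of this list with the most reads, was at 67.3 and 82.7 CPM, a ratio of 0.30 (0.17 to 0.42). Fgfrl1, an FGF receptor without a kinase, was higher at 0.64 (0.38 to 0.90), and Fgfr3 was lower at -1.21 (-1.83 to -0.62) with 78 and 35 reads. Of 3 co-receptors with enough reads, Sdc1, Sdc2 and Sdc4, none passed 1.5-fold.

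Over all cells no feedback gene other than these Sprouty members was higher past 1.5-fold. Of 6 with enough reads, 0 were higher and 2 were lower, beside 16% and 13.1% of all genes. Spred2 was at 0.55 and, with 1 leading cell per genotype removed, at 0.62. In cluster 3, where 2 had enough reads, Spred1 was higher at 0.68 (0.42 to 0.94). Of 4 with enough reads in cluster 1, 0 were higher and 1 was lower, against 17.7% and 16.2% of all genes. Of 3 in TC-like cells, 0 were higher and 2 were lower, against 28% and 13.2%, with a median of -1.50. Dusp5, a phosphatase that acts on ERK in the nucleus, was at 30.6 CPM in WT against 17.1 in Mkx-/- cells, a ratio of -0.84 (-1.07 to -0.61). Dusp6, which acts on ERK in the cytoplasm, was at 15.3 and 6.15 CPM, a ratio of -1.32 (-1.70 to -0.95), with 48.3% of its WT reads in 1 cell. With 1 leading cell per genotype removed the ratio was -0.86 (-1.34 to -0.40) for Dusp6 and -0.95 (-1.21 to -0.70) for Dusp5. Spry4 was at 8.88 and 6.65 CPM, with 62.8% of its Mkx-/- reads in 1 cell, and at -1.55 without such cells.

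Of 17 adaptors and kinases with enough reads, 4 were higher and 2 lower over all cells, beside 16% and 13.1% of all genes. The docking protein Gab1 was at 0.996 (0.77 to 1.23), the exchange factor Sos2 at 0.74 (0.56 to 0.92), Map2k2 at 0.69 (0.55 to 0.82), Braf at -0.70 (-0.93 to -0.47) and Mapk3 at -0.68 (-0.96 to -0.41). In TC-like cells 9 of the 17 were higher and 3 lower, against 28% and 13.2% of all genes. The other clusters differed from this. Of 16 with enough reads in cluster 1, 6 were higher and 3 lower, against 17.7% and 16.2% of all genes. Of 16 in cluster 3, 4 were higher and 6 lower, against 20.6% and 19.5%, with a median of -0.28. Of 7 target genes, Etv1 was higher at 0.70 (0.26 to 1.16), and the immediate early genes Egr1 at -0.17 and Fos at -0.23 were under 1.5-fold. Among VEGF receptors, Flt1 had 73 and 35 reads, a ratio of -1.11 (-1.74 to -0.51), with more than 50% of the reads of each genotype in 1 cell. Kdr had 79 and 5 reads, 93.7% of the WT reads in 1 cell, and Flt4 had 14 and 0. Receptors of the third family that BIBF1120 blocks were thus barely read in these cells. Pdgfra, Pdgfrb and Fgfr1 were read in 47.5% or more of the thinned cells of either genotype, and Fgfr2 in 6.86% and 9.22%. Only 1 well per genotype held reads of 3 endothelial markers. The paper also reports no endothelial cells among its single cells and gives the few cells captured as the probable reason. These values therefore do not cover the receptors of vessels in the tendon.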

How the data were processed

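Single cells from tail tendons were captured on a Fluidigm C1 chip. The authors deposited a table of raw read counts per gene and cell. Per the study's methods, reads were trimmed, mapped with Bowtie2 and counted with featureCounts. The methods name build mm9 and the submitters' processing notes mm10, with no versions. Gene positions are GENCODE M1 on NCBIM37 (mm9), and 28993 of 48795 symbols matched it. Promoters are RefSeq on GRCm38.p6, with entries for 7 of the 10 members. No molecular identifiers were used, so reads are not independent molecules.

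All 451 cells were kept, fewer than the study describes; no doublets were called, and 0 columns were unused. The members and lists were chosen with earlier results of these data known. Reads were summed per genotype and cluster as CPM, with exact Poisson, conditional binomial, Clopper-Pearson and Newcombe intervals (Python 3.11.15, numpy 2.4.6, scipy 1.17.1, pandas 2.3.3). Genes under 100 reads in a comparison were left out, and a difference past 1.5-fold was counted. Cells were clustered with canonical correlation alignment of 1693 genes in Seurat 5.3.0 (R 4.3.3; 4 dimensions, resolution 0.4). TMM scaling came from edgeR 4.0.16, as an alternative only. The calculation of ratios and intervals was checked on simulated Poisson counts with known changes. These hold no amplification and no spread between cells or animals, so they do not show that the intervals are wide enough here. All members are named; other pathway genes are named where past 1.5-fold, at most 3 per list and direction, and further ones were chosen after their values were seen.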

Additional observations from a re-analysis of the deposited data

How the results depend on the processing

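No paired analysis was possible because each genotype is 1 sample and the labels pair no cells; for the same reason no replicate could be left out. Under alternative settings, 88 counts and medians over lists kept within their limits and 11 moved, and of the ratios and shares of single members 72.2% stayed within their counting interval and 27.8% moved; the causes were not tested unless the setting itself removes genes. Equal cluster weights gave 2 members lower past 1.5-fold in place of 1. At 2-fold, 0 members were higher and 0 lower over all cells, in place of 3 and 1, and pathway genes were 0 higher and 4 lower, in place of 6 and 9. With no minimum of reads and a pseudocount of 1 CPM, which adds genes of few reads, 18 pathway genes were lower and their median was -0.19 in place of 0.05. The members' median was 0.75 in cluster 1 and 0.74 in TC-like cells with the mean of per-cell CPM (0.43 and 0.58 from summed reads), 0.89 in TC-like cells after thinning, and -0.018 in cluster 3 when clustered in 10 dimensions (0.28 in 4). Leaving out leading cells, giving counts relative to the median of all genes and giving ratios under each clustering were chosen after seeing the data. Over all settings the ratio over all cells ranged from 0.37 to 0.57 for Pdgfra, 0.47 to 0.74 for Pdgfrl, 0.59 to 0.86 for Spry2, 0.77 to 1.36 for Spry1 and -1.02 to -0.78 for Fgf2, and it took both signs for Pdgfrb (-0.12 to 0.03) and Fgfr2. Depth limits the genes of few reads, among them Fgfr2, Fgf7, Spry1 and the VEGF receptors.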
